A study of Mus musculus with 5 samples.

Results

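The fibroblasts described here were 908 barcodes of 12707 in 4 single-cell RNA libraries from mouse lung. They were selected on their own counts and on nothing else. A barcode was a member if it had at least 3 of Tcf21, Npnt, Slc7a10, Col13a1, Mfap4 and Inmt detected, fewer than 5 counts of Acta2, no count of Pecam1, and fewer than 2 of the adventitial genes Pi16, Dpt and Col14a1 detected. Barcodes entered with more than 700 and fewer than 8000 genes detected and with under 5% of their counts from mitochondrial features. C57BL/6J pups breathed room air or more than 95% oxygen for 3 days from within 12 h of birth, recovered in air, and gave lungs at postnatal day 7 (pnd7) or day 60 (pnd60). The libraries are called AirD7, O2D7, AirD60 and O2D60, 1 for each condition. The number of mice in each of these libraries is not given in the sources used here. A further library (SD7) held cells from hyperoxia-exposed pnd7 lungs, pooled from 3 mice and sorted for the dye C12FDG, which marks lysosomal beta-galactosidase activity. None of its 493 barcodes was a member, which allows a share of up to 0.609% (3 counts of the total). After the thinning described below, 1 of 484 was.

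Fibroblasts of the alveolar wall lie close to type II epithelial cells and to capillaries. Tcf21 is a transcription factor of this lineage, Npnt (nephronectin) is a basement membrane ligand of the integrin alpha8beta1, and Mfap4 is a microfibril-associated protein. Lipofibroblasts are described in the neonatal lung as the alveolar fibroblasts that store neutral lipid and retinoids and pass lipid to type II cells. Myofibroblasts, marked by Acta2, lay down elastin while the alveolar septa form, and adventitial fibroblasts surround the larger vessels and airways. Inmt encodes a methyltransferase, Slc7a10 an amino acid transporter and Col13a1 a transmembrane collagen.

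AirD7 held 231 members with a median of 2622 counts, O2D7 held 81 with a median of 5414, AirD60 held 287 with a median of 3670, and O2D60 held 309 with a median of 3485. Their summed counts were 1157726, 586544, 1214591 and 1323271. The smallest class therefore had less than the others to measure with. Levels below are CPM, the counts of a gene over the members of a library divided by all counts of those members and multiplied by 1000000. Intervals are exact Poisson or binomial 95% intervals of the counting error alone. A condition had no second library, so there was no test and no spread between animals, and every difference below is between libraries and was not separated from differences between mice or preparations. Between 5 and 7 barcodes were shared by any pair of these 4 libraries, and no member was among them.

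The members made up 10.0% of the AirD7 barcodes (95% interval 8.81 to 11.3, 231 of 2308), 6.50% of O2D7 (5.2 to 8.02, 81 of 1246), 6.53% of AirD60 (5.81 to 7.30, 287 of 4397) and 6.50% of O2D60 (5.81 to 7.24, 309 of 4756). Thinning the counts changed these shares. All barcodes of O2D7 had a median of 7119.5 counts against 3915 in AirD7. Thinning acts on every limit of the rule at once, so the part of any single limit, such as that on Acta2, was not tested. After each barcode was thinned to 1500 counts, the share was 9.61% in AirD7, 11.1% in O2D7 (9.31 to 13.0), 7.43% in AirD60 and 7.06% in O2D60. The order of the pnd7 libraries was thus opposite on the thinned counts, and no direction is read from it. At pnd60 the intervals of the air and hyperoxia libraries overlapped either way. The share of barcodes depends on how each lung was dissociated, and fewer cells and less RNA per cell cannot be told apart below the limit on genes detected.

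**Figure D1:**
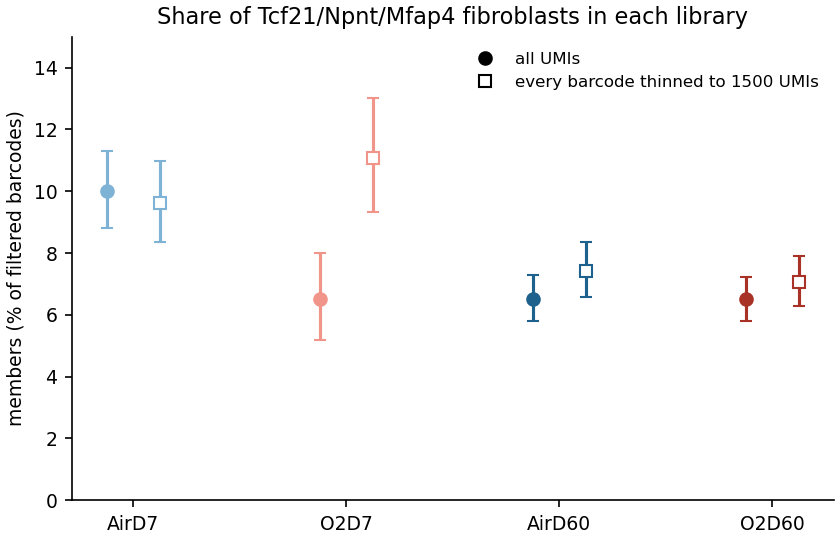
Members as a percent of barcodes (y axis) in the 4 libraries (x axis), from all counts and after thinning each barcode to 1500 counts; bars on the points are Clopper-Pearson 95% intervals of counting error. The order of AirD7 (10.0% and 9.61%) and O2D7 (6.50% and 11.1%) changes with thinning, while both pnd60 libraries stay between 6.50% and 7.43%.

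The genes of the rule are given as a description, since they chose the members. Inmt was 55.3 CPM in AirD7, 46.0 in O2D7, 8031 in AirD60 and 8140 in O2D60. A count of Inmt was found in 10.0% and 12.3% of the pnd7 members and in 99.3% and 100% of the pnd60 members. In immune barcodes (Ptprc detected, with no count of Pecam1, Epcam, Col1a2 or Col3a1) the corresponding shares were 0%, 0%, 29.8% and 34.0%, at median depths of 5678, 6683, 1973 and 2169.5 counts. The pnd7 members were therefore chosen in practice on the other 5 genes. Mfap4 was 11439 and 14519 CPM in the pnd7 members and 3366 and 3890 in the pnd60 members. Npnt was 1837, 1710, 4369 and 4462 CPM, in the order AirD7, O2D7, AirD60 and O2D60, which is kept below wherever 4 values are given. Tcf21 was 1339, 1599, 610 and 519 CPM. Slc7a10 was 172, 165, 434 and 380 CPM, and Col13a1 was 333, 339, 409 and 336 CPM. The air and hyperoxia libraries lay close to each other for these genes, and the ages lay apart for all but Col13a1.

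Members met the rule by different margins. In AirD7, 126 members had exactly 3 of the 6 genes, and 46, 55 and 4 had 4, 5 and 6. In O2D7 these numbers were 31, 15, 27 and 8, in AirD60 54, 35, 74 and 124, and in O2D60 69, 47, 83 and 110. Just outside the rule, with 2 of the 6 genes and every other limit met, were 266, 88, 248 and 300 barcodes. Just inside the limit on Acta2, with 3 or 4 counts, were 28, 13, 2 and 0 members, and just outside it, with 5 or 6 counts, were 14, 12, 0 and 0 barcodes.

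The members at the threshold looked less like fibroblasts than the others. The examples here are Macf1 (a cytoskeletal linker), Cdh11 (a mesenchymal cadherin), Col1a2 and the type II cell gene Sftpc, and they were chosen after their values were seen. In AirD7, Macf1 was 1291 CPM in members with 3 genes, 3179 in those with 4 and 6761 in those with 5 or 6. Col1a2 was 1148, 2806 and 4447 CPM in the same order, and Sftpc was 50103, 16035 and 669 CPM. Detected genes also follow depth, with medians of 2090, 2530.5 and 10334 counts in these 3 subsets. In AirD60, Macf1 was 651, 3976 and 5320 CPM, Pdgfra was 153, 1391 and 1698 CPM, and Sftpc was 64814, 19802 and 4253 CPM. Barcodes with only 2 genes, outside the class, had 465, 195, 298 and 312 CPM of Macf1 in the 4 libraries. A count of Ptprc, Cdh5 (endothelial) or Epcam (epithelial) was found in 48.4% of the AirD7 members with 3 genes, 39.1% with 4 and 8.47% with 5 or 6. In AirD60 these shares were 74.1%, 25.7% and 13.6%, and in O2D60 they were 62.3%, 23.4% and 14.0%. For this reason some values below are given also for members with at least 4 of the 6 genes, or for members without a count of Ptprc, Cdh5 or Epcam. The numbers of named genes that remained past 2-fold in these members are given in the last section, without naming each gene.

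**Figure D2:**
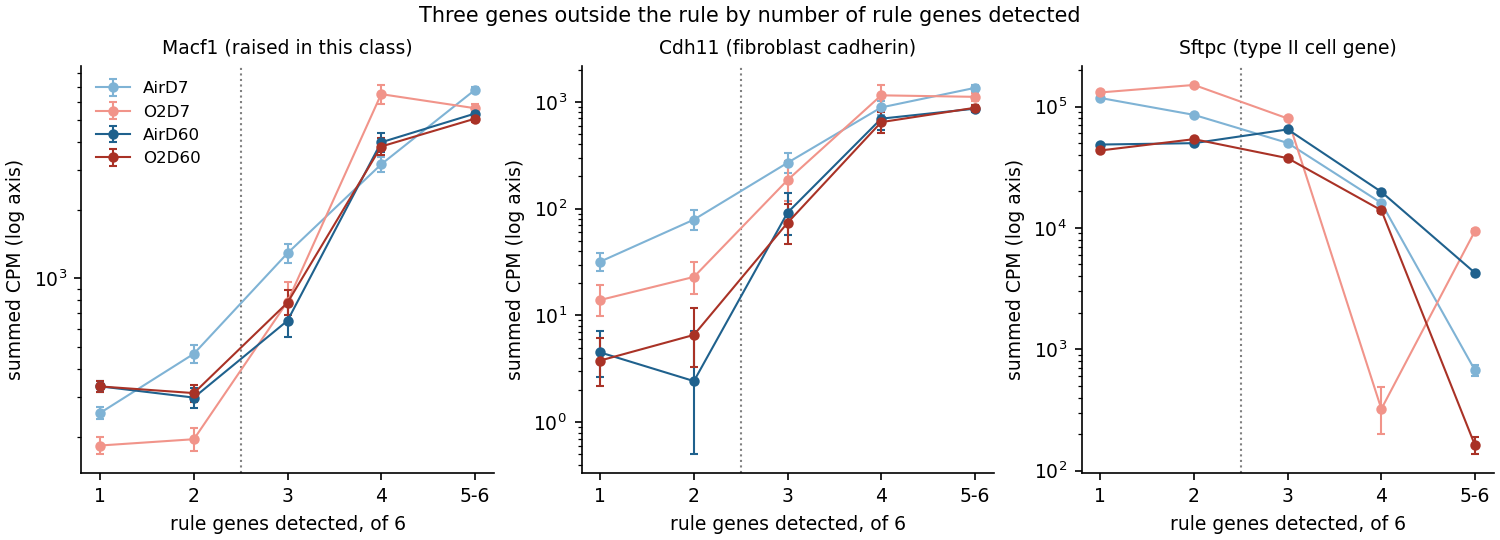
Summed level (CPM, log y axis) of Macf1, Cdh11 and Sftpc in barcodes grouped by how many of the 6 genes of the rule were detected (x axis), 1 line per library with Poisson 95% intervals; the dotted line marks the threshold of the rule. Macf1 is higher in members with 4 or more genes than in members with 3 in every library, and Sftpc is lower.

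RNA of other cell types was present in all 4 classes of members. Any of Ptprc, Cdh5 and Epcam was detected in 36.4%, 11.1%, 26.5% and 26.2% of members. Sftpc was found in 87.9%, 69.1%, 49.5% and 49.2% of members, against 70.0%, 76.1%, 40.9% and 44.1% of the immune barcodes, which should lack it. The type II cell list summed to 20567, 27449, 23051 and 13756 CPM in members and to 55978, 65827, 39608 and 39636 CPM in the remaining barcodes, with Sftpc as the most abundant gene. The macrophage list of 12 genes summed to 849, 293, 805 and 1845 CPM in members and to 1596, 1685, 3395 and 4109 CPM in the rest. Lyz2 was its most abundant gene in AirD7, O2D7 and AirD60 and Chil3 in O2D60. In the O2D7 members 9 of its 12 genes were at 0. The endothelial list summed to 413, 138, 165 and 218 CPM in members and to 1412, 1687, 2565 and 2588 CPM in the rest, and the red blood cell list to 54947, 22119, 2914 and 38.5 CPM in members. Airway markers summed to 698, 47.7, 545 and 775 CPM, lymphocyte markers to 73.4, 25.6, 306 and 320 CPM, and type I cell markers to 1128, 633, 1006 and 1496 CPM. O2D7 thus had the least macrophage, lymphocyte and airway RNA among its members. Hemoglobin genes took 5.48%, 2.21%, 0.290% and 0.00385% of the members' counts. A single O2D7 member held 68.7% of the Hbb-bs counts of its class, and a single AirD60 member held 93.3%.

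Against all other barcodes of their library, the members of AirD7 were led by C7 (a complement component), Slc27a6 (a fatty acid transporter), Cacna1d, Slit2 (an axon guidance ligand), Adh1 (alcohol and retinol dehydrogenase), Frem1 (a basement membrane protein), Cp (the ferroxidase ceruloplasmin), Meox2 (a mesodermal homeobox factor) and Wnt2. The folds, with 10 CPM added to both sides, ran from 12.2 for C7 to 8.26 for Wnt2. The pnd60 members were led by Pdgfra (30.5-fold in AirD60 and 29.7-fold in O2D60), Itga8 (29.5 and 25.8) and, among others, C7 (24.3 and 25.7). Itga8 is a subunit of the nephronectin receptor. These folds describe the classes and were not tested, since the members were chosen from the same counts.

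The lipid part of the name given to these cells was borne out by some comparisons and not by others. The lipid storage and Pparg list was higher in members than in barcodes with 5 or more Acta2 counts and at least 2 other smooth muscle genes (Acta2-high) at pnd7, for 8 of 15 genes in AirD7 and 4 of 7 in O2D7, with 0 lower (medians 1.46 and 1.11). Of all genes compared with that class, 6.13% and 4.6% were higher. Against adventitial fibroblasts it was near level, with 1 of 10 genes higher and 1 lower in AirD7, 2 of 12 higher and 1 lower in AirD60, and 3 of 12 higher and 0 lower in O2D60 (medians 0.11, 0.11 and 0.40), beside 10.6%, 7.81% and 6.53% of all genes higher. Plin2, which coats lipid droplets, was 178, 145, 110 and 143 CPM in members and 154, 142, 176 and 159 CPM in all other barcodes, which include type II cells and macrophages. At pnd7 it was 46.9 and 67.0 CPM in the Acta2-high class. Pparg, the adipogenic nuclear receptor, was 16.4, 8.52, 11.5 and 9.82 CPM in members and 15.7, 16.7, 22.5 and 23.1 CPM in all other barcodes. Plin2 and Pparg were chosen after their values were seen. G0s2, an inhibitor of triglyceride lipase, was higher in members than in either set, with 352, 500, 825 and 633 CPM against 102, 145, 395 and 292 CPM in adventitial fibroblasts and 64.5, 100.4, 32.3 and 31.6 CPM in all other barcodes. Since lipid genes did not set the members apart from every class, the cells are called Tcf21/Npnt/Mfap4 fibroblasts here.

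The largest differences were between the ages. The question asked by this comparison is which genes of these fibroblasts differed between septation and the adult lung, and whether the same genes differed after neonatal hyperoxia. Genes were compared where both classes together had at least 100 counts and the smaller class was expected to hold at least 20, and a gene was counted as higher or lower past a fold of 2. In air, 4575 genes had enough counts, of which 713 (15.6%) were higher and 491 (10.7%) were lower at pnd60. After hyperoxia 3883 genes had enough counts, of which 788 (20.3%) were higher and 479 (12.3%) were lower. The median log2 ratio of all genes was 0.16 in air and 0.21 after hyperoxia, and the ratios below are to be read against these medians. With the median set to 0, the share of higher genes among those past 2-fold was 47.0% in place of 59.2% in air, and 48.2% in place of 62.2% after hyperoxia. The comparison in air and that after hyperoxia share no library. Of 3818 genes with enough counts in both, 476 were higher in both (77.3% of the 616 higher in air and 62.6% of the 760 higher after hyperoxia). A further 335 were lower in both (85.0% of 394 and 70.4% of 476), and 4 went opposite ways.

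**Figure D3:**
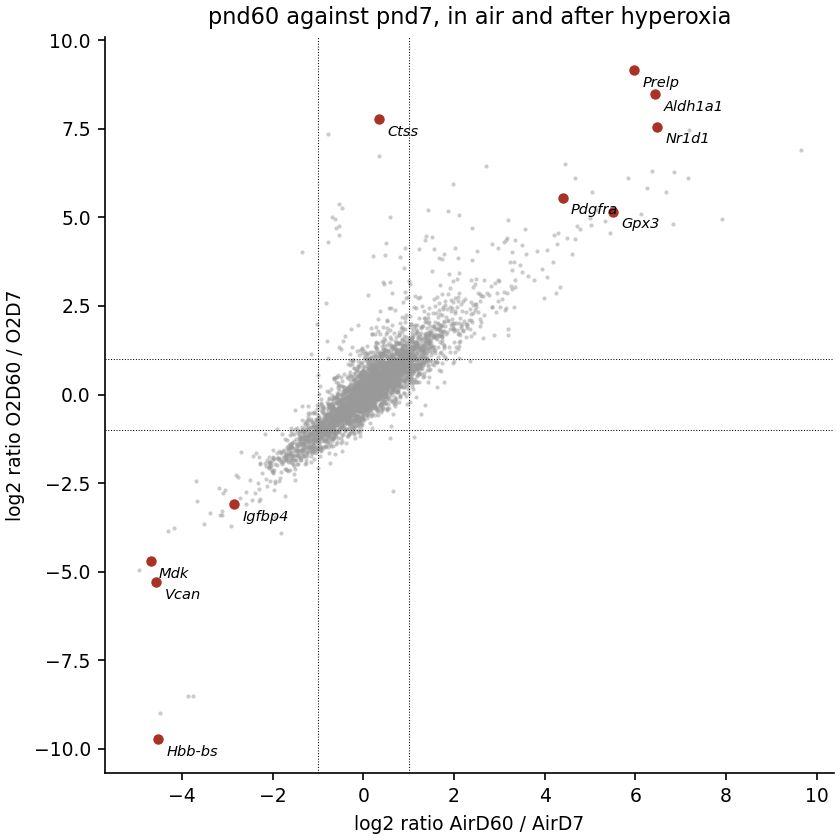
Log2 ratio of pnd60 over pnd7 members in air (x axis) and after hyperoxia (y axis) for 3818 genes; each point is a gene, dotted lines mark 2-fold, and genes at 0 counts in a class are placed at their bound. Most genes past 2-fold lie in the lower left and upper right corners, with 335 and 476 genes, and 4 lie in the other corners.

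Pdgfra, the receptor for PDGF-A, was higher at pnd60. It was 65.6 CPM in AirD7, 25.6 in O2D7, 1381 in AirD60 and 1207 in O2D60. Both pnd60 libraries lay above both pnd7 libraries, with a log2 ratio of 4.39 in air (4.06 to 4.75) and 5.56 after hyperoxia (4.83 to 6.4). Members with at least 4 genes of the rule gave 4.60 and 5.77, and all other barcodes went the opposite way, at -1.51 and -0.78. Itga8 was 248, 227, 867 and 859 CPM, with log2 ratios of 1.81 and 1.92. Scn7a, a sodium channel, was 129, 92.1, 594 and 572 CPM, with ratios of 2.21 and 2.64. Wnt2, a ligand of the lung mesenchyme, was lower at pnd60, at 272, 327, 119 and 118 CPM (-1.20 and -1.47), and so was Meox2 at 420, 540, 127 and 158 CPM (-1.73 and -1.77). Limch1, which binds myosin, was the list's gene with most counts, and its ratios of 0.63 and 0.58 did not pass 2-fold. Of 21 alveolar fibroblast genes that the rule did not use, 6 were higher and 3 lower in air (median 0.30), beside 15.6% of all genes higher and 10.7% lower. After hyperoxia 20 had enough counts, of which 5 were higher and 4 lower (median 0.21), beside 20.3% and 12.3% of all genes. The medians in all other barcodes were -1.13 and -1.66.

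Retinoid genes differed in both directions. Retinoic acid made in the mesenchyme is known to promote septation. Aldh1a1, which makes retinoic acid from retinal, was 14.7 CPM in AirD7, 3.41 in O2D7, 1268 in AirD60 and 1220 in O2D60. The O2D7 value rests on 2 counts. Its log2 ratio was 6.43 in air (5.75 to 7.22) and 8.48 after hyperoxia (6.63 to 11.53). Lrat, which esterifies retinol for storage, had 4 counts in AirD7 and none in O2D7, and was 286 and 406 CPM at pnd60. Its ratio was 6.37 in air (5.0 to 8.25) and at least 6.31 after hyperoxia. Dhrs3, which reduces retinal, was 55.3, 32.4, 123 and 125 CPM (1.15 and 1.95). Adh1, an alveolar list gene that oxidises retinol, went the other way, at 960, 1284, 289 and 299 CPM (-1.73 and -2.10). In the retinoid list, 4 of 7 genes were higher and 1 lower in air (median 1.0), and 4 of 6 were higher and 1 lower after hyperoxia (median 1.5). The shares over all genes were 15.6% higher and 10.7% lower in air, and 20.3% and 12.3% after hyperoxia. The medians in all other barcodes were 0.87 and 1.07.

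The lipid and sterol genes past 2-fold with age were higher at pnd60, by list medians that were close to those of all other barcodes in air. In the lipid list, 3 of 13 genes were higher and 0 lower in air, beside 15.6% of all genes higher. Its median was 0.38 in members, 0.41 in all other barcodes and -0.09 without members with Ptprc, Cdh5 or Epcam. After hyperoxia 6 of 12 were higher and 0 lower, beside 20.3% of all genes higher. The median was then 0.74 in members, 0.29 in all other barcodes and 1.65 without members with Ptprc, Cdh5 or Epcam. Scd1, the stearoyl-CoA desaturase, was 295, 280, 978 and 885 CPM (1.73 and 1.66). Apoe, a lipid carrier that macrophages also make in quantity, was 815, 423, 1661 and 1960 CPM (1.03 and 2.21). In the cholesterol synthesis and uptake list, 4 of 9 and 4 of 8 genes were higher and 0 lower, beside 15.6% and 20.3% of all genes higher. The medians were 0.96 and 0.94 in members and 0.88 and 0.89 in all other barcodes. Among them was Insig1, which holds back sterol synthesis, at 40.6, 34.1, 162 and 123 CPM.

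In the list of myofibroblast and smooth muscle genes, from which Acta2 chose the members, 2 of 8 genes were higher and 5 lower in air (median -1.80), and 2 of 6 were higher and 3 lower after hyperoxia (median -1.51). The shares over all genes were 15.6% higher and 10.7% lower in air, and 20.3% and 12.3% after hyperoxia. The median after hyperoxia was 0.26 with at least 50 counts per gene and 0.14 with a wider filter on barcodes, so its direction depends on these settings. In all other barcodes the medians were -3.0 and -3.11.

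The matrix genes split. Of the elastic fibre list, 5 of 16 genes were higher and 3 lower in air (median -0.07), and 5 of 15 were higher and 4 lower after hyperoxia (median 0.66). Of all genes 15.6% and 20.3% were higher and 10.7% and 12.3% lower. The list medians in all other barcodes were -2.01 and -1.86. Eln itself did not pass 2-fold, at 1616, 1418, 954 and 1165 CPM, with log2 ratios of -0.76 (-0.86 to -0.66) and -0.28. Ltbp4, a latent TGF-beta binding protein needed for elastic fibre assembly, was higher at pnd60, at 307, 402, 1781 and 2029 CPM (2.54 and 2.33). Lox, which cross-links elastin and collagen, was 105, 85.2, 331 and 268 CPM (1.66 and 1.65). The microfibril and fibre genes Mfap2 (497, 540, 43.6 and 43.1 CPM), Ltbp2 (211, 230, 24.7 and 33.3 CPM) and Fbln5 (798, 837, 191 and 212 CPM) were lower at pnd60. Their ratios were -3.51, -3.09 and -2.06 in air and -3.65, -2.79 and -1.98 after hyperoxia.

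Among collagens and proteoglycans, 2 of 15 genes were higher and 4 lower in air (median -0.52), and 1 of 15 was higher and 6 lower after hyperoxia (median -0.61). The same shares of all genes stand beside these counts (15.6% and 20.3% higher, 10.7% and 12.3% lower), and the list medians in all other barcodes were -2.66 and -2.34. The large proteoglycan Vcan was 528, 742, 22.2 and 18.9 CPM (-4.57 and -5.29), the glycoprotein Tnc was 454, 515, 66.7 and 104 CPM (-2.77 and -2.31), and fibronectin, Fn1, was 2928, 3023, 1328 and 1244 CPM (-1.14 and -1.28). Col1a1 was 3107, 3250, 1641 and 1589 CPM, with log2 ratios of -0.92 and -1.03, just below and just past 2-fold. The small leucine-rich proteoglycan Ogn was higher at pnd60, at 366, 356, 2060 and 1986 CPM (2.49 and 2.48). Prelp, a related matrix protein, was 33.7, 3.41, 2123 and 1942 CPM, with ratios of 5.98 and 9.15 (7.30 to 12.20), the second on 2 counts in O2D7. Bgn was 1110, 1262, 2279 and 2173 CPM, past 2-fold in air (1.04) and not after hyperoxia (0.78). Of the basement membrane list, 1 of 11 genes was higher and 1 lower in air, and none of 10 passed 2-fold after hyperoxia.

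**Figure D4:**
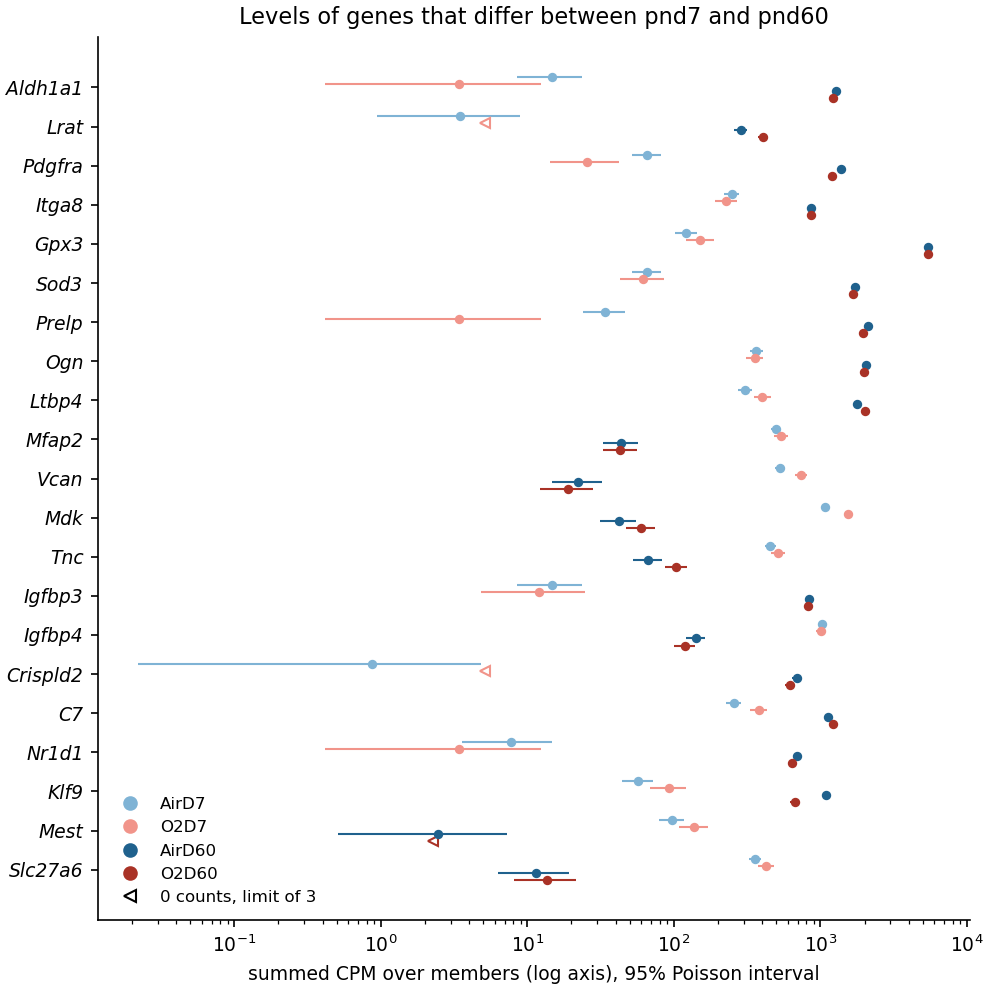
Level (CPM, log x axis) of 21 retinoid, receptor, antioxidant, matrix, secreted, complement, clock and other genes (y axis) in the members of the 4 libraries, with Poisson 95% intervals; open triangles are genes at 0 counts, placed at the limit of 3 counts. The ages lie apart, as for Gpx3 (121 and 152 CPM at pnd7, 5461 and 5424 at pnd60). At pnd7 the air point lies well above the hyperoxia point for Pdgfra (65.6 and 25.6 CPM), Aldh1a1 (14.7 and 3.41 CPM) and Prelp (33.7 and 3.41 CPM).

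Secreted and growth factor genes also split by age. The insulin-like growth factor binding proteins went in both directions. Igfbp3 was 14.7, 11.9, 841 and 822 CPM (5.84 and 6.11), Igfbp6 was 8.64, 3.41, 221 and 238 CPM (4.67 and 6.13), and Igfbp4 was 1018, 1009, 141 and 119 CPM (-2.85 and -3.09). Mdk, the heparin-binding growth factor midkine, was 1083, 1553, 42.0 and 59.7 CPM (-4.69 and -4.70). Crispld2, a secreted protein known as late gestation lung 1, had 1 count in AirD7 and none in O2D7, against 839 and 815 counts at pnd60. Its log2 ratio was 9.64 in air (7.16 to 14.95) and at least 6.91 after hyperoxia. In the growth factor and receptor list, 7 of 23 genes were higher and 3 lower in air, and 9 of 23 were higher and 2 lower after hyperoxia (medians 0.55 and 0.78). Of all genes 15.6% were higher and 10.7% lower in air, and 20.3% and 12.3% after hyperoxia. The list medians in all other barcodes were -0.76 and -0.62. Tgfbr2, a TGF-beta receptor, was 140, 78.4, 444 and 410 CPM (1.67 and 2.39), and Wnt5a was 182, 172, 41.2 and 33.3 CPM (-2.15 and -2.37).

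Other genes were close to absent in the pnd7 members and present at pnd60. Serpina3n, a secreted protease inhibitor, had 1 and 0 counts at pnd7 and was 208 and 159 CPM at pnd60. Its log2 ratio was 7.91 in air (5.42 to 13.22) and at least 4.96 after hyperoxia. Gsta3, a glutathione transferase, was 1.73, 3.41, 245 and 237 CPM (7.15 and 6.12). Colq, which anchors acetylcholinesterase in the matrix, was 2.59, 0, 264 and 271 CPM, and Ms4a4d, a membrane protein, was 0, 3.41, 301 and 265 CPM. These values rest on 3 counts or fewer in each pnd7 library, so the direction is read from them and the size only within its interval. In the other direction, Slc27a6, which led the pnd7 members, was 358, 425, 11.5 and 13.6 CPM, with log2 ratios of -4.96 in both comparisons. Capn6, a calpain-like protein that binds microtubules, was 111, 95.5, 3.29 and 1.51 CPM. After hyperoxia the highest ratios also included the macrophage genes Ctss (7.77), Ccl6 (7.35) and Abcg1 (6.77), each on 1 count in O2D7, where macrophage RNA was lowest. The 4 hemoglobin genes lay between -8.51 and -9.73 after hyperoxia.

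Antioxidant genes included large differences. Gpx3, the secreted glutathione peroxidase, was 121 CPM in AirD7, 152 in O2D7, 5461 in AirD60 and 5424 in O2D60. The ages did not overlap, and the log2 ratios were 5.50 (5.26 to 5.75) and 5.16 (4.86 to 5.48), against 3.19 and 2.36 in all other barcodes. Per member the median was 0 per 10000 counts in AirD7, 0.67 in O2D7, 55.4 in AirD60 and 55.7 in O2D60. Sod3, the extracellular superoxide dismutase, was 65.6, 61.4, 1720 and 1673 CPM (4.71 and 4.77). In the antioxidant list 5 of 19 genes were higher and 1 lower in air (median 0.33), and 7 of 15 were higher and 0 lower after hyperoxia (median 0.99). Of all genes 15.6% were higher and 10.7% lower in air, and 20.3% and 12.3% after hyperoxia. The list medians in all other barcodes were -0.01 and 0.04.

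Complement genes were higher at pnd60 in both comparisons. In the complement list 6 of 7 genes were higher in air and 6 of 6 after hyperoxia, beside 15.6% and 20.3% of all genes. The medians were 2.13 and 2.49 in members and 0.76 and 0.54 in all other barcodes. C7 was 256, 378, 1120 and 1215 CPM (2.13 and 1.68), and the C1 inhibitor Serping1 was 395, 372, 1330 and 1283 CPM (1.75 and 1.79). Of the 12 genes of the MHC class I list only B2m and H2-T23 had enough counts, and 6 to 8 were at 0 in a library. H2-K1, H2-D1 and Tap1, which are each listed a second time as a further copy, had 4 counts or fewer in every library. B2m, the light chain of MHC class I, was 269, 179, 940 and 1040 CPM, with ratios of 1.80 and 2.54 in members and 1.88 and 1.76 in all other barcodes. H2-T23 was 21.6, 6.82, 114 and 94.5 CPM, with ratios of 2.41 and 3.79, against 1.48 and 1.58 in all other barcodes. In the list of chemokines, cytokines and proteases that the study used for the secretory phenotype of senescent cells, 3 of 9 genes were higher and 0 lower in air, and 2 of 7 were higher after hyperoxia. Among all genes 15.6% and 20.3% were higher. The medians of this list were 0.33 and 0.61 in members and 0.17 and -0.42 in all other barcodes. Cxcl14, a chemokine of resting fibroblasts and epithelia, was 32.8, 35.8, 835 and 745 CPM (4.67 and 4.38). Tnfaip2 was 19.9, 6.82, 105 and 178 CPM (2.41 and 4.71).

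Cell cycle genes were detected in fewer members at pnd60. At least 2 of 9 cell cycle genes were detected in 22.1% and 18.5% of the pnd7 members and in 1.05% and 0.971% of the pnd60 members. After thinning to 1500 counts, the shares were 16.1%, 11.1%, 0.758% and 0.353%. In the cell cycle list 7 of 9 genes were lower in air and 3 of 5 after hyperoxia, with 0 higher (medians -2.24 and -2.13), beside 10.7% and 12.3% of all genes lower. The medians of these genes in all other barcodes were -1.67 and -1.73. Stmn1, which destabilises microtubules, was 380, 431, 80.7 and 93.0 CPM. In the imprinted gene list 5 of 8 genes were lower in air and 2 of 6 after hyperoxia, with 0 higher (medians -1.36 and -0.98). In all other barcodes the medians were further below 0, at -2.58 and -1.49. Mest was 96.7, 136, 2.47 and 0 CPM, with a log2 ratio of -5.29 in air (-7.59 to -3.71). Cdkn1c, an imprinted inhibitor of the cell cycle, was 266, 239, 37.9 and 49.9 CPM (-2.81 and -2.26).

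The study followed senescence, so marks it used are given for these members whatever their change. Cdkn1a, which encodes the cell cycle inhibitor p21, had 6, 4, 30 and 29 counts, or 5.18, 6.82, 24.7 and 21.9 CPM. It was found in 2.60%, 3.70%, 5.92% and 5.83% of members, against 9.56%, 16.9%, 7.80% and 6.45% of the immune barcodes at the depths given above. It was too low for a comparison between air and hyperoxia at pnd7, where the log2 ratio of 0.40 had an interval of -1.87 to 2.47. At pnd60 that ratio was -0.17 (-0.96 to 0.61). Lmnb1, a nuclear lamin that is lost in senescent cells, was 95.0, 78.4, 18.9 and 19.6 CPM, lower by age in air (-2.33, -3.04 to -1.67) and -0.28 between hyperoxia and air at pnd7. Hmgb1, a chromatin protein, was 1066, 1233, 436 and 503 CPM, and Hmgb2 was 576, 518, 142 and 119 CPM. Between hyperoxia and air, Hmgb1 had a log2 ratio of 0.21 at both ages, Hmgb2 had -0.15 and -0.26, and B2m had -0.59 and 0.15, so none of them passed 2-fold. Plaur was 17.3, 1.70, 10.7 and 21.2 CPM and Glb1 was 17.3, 15.3, 16.5 and 18.9 CPM, both on 28 counts or fewer per library.

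Many genes with a daily rhythm and genes induced early by stress were higher at pnd60, and the list medians lay above 0 in all other barcodes too. In the immediate early list 10 of 16 genes were higher in air and 9 of 15 after hyperoxia, with 0 lower (medians 1.25 and 1.35, against 0.85 and 0.88 in all other barcodes). Of all genes 15.6% and 20.3% were higher. Egr1, a transcription factor induced within minutes, was 291, 396, 1419 and 1512 CPM (2.28 and 1.93), and the phosphatase Dusp1 was 245, 319, 2180 and 1740 CPM (3.15 and 2.45). Lists of clock genes and of glucocorticoid-induced genes were added after these values were seen. In the clock list 9 of 10 genes with enough counts were higher in air and 9 of 9 after hyperoxia (medians 2.55 and 3.07, against 0.92 and 1.35 in all other barcodes). In the glucocorticoid list 9 of 11 and 6 of 8 were higher (medians 2.88 and 1.78, against 1.58 and 1.05). The clock repressor Nr1d1 was 7.77, 3.41, 692 and 642 CPM (6.48 and 7.56, the second on 2 counts in O2D7), and the glucocorticoid target Klf9 was 57.0, 92.1, 1085 and 667 CPM (4.25 and 2.86). The hour of collection and the handling time are not stated in the sources used, and their part in these values was not tested.

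The clock factors CLOCK and BMAL1 bind an E-box, and promoters of clock genes are shown here because these genes differed together. The letters searched were CACGTG, which read the same on both strands, in the 250 bases before each start site of the RefSeq annotation of GRCm38.p6. They were found in 6.02% of 32851 promoter windows. Of the 17 clock genes 15 had a window, with 20 windows in all, and 5 of these genes held the letters (Bhlhe41, Ciart, Cry1, Per1 and Tef). Only Per1 and Tef of these 5 were among the genes counted as higher at pnd60. The 5 of 15 counts genes and the 6.02% counts windows, so the shares are not like for like. In the glucocorticoid list the letters were in 4 of 14 genes, which had 25 windows. The D-box, searched as TTATGTAA on both strands, was in 1 of the 15 clock genes and 0.819% of all windows. The ROR element, searched as AGGTCA on both strands, was in 3 of the 15 and 14% of all windows. Capitals mark the match in 80 bases of the plus strand of 1 Per1 promoter (chr11:69098746-69098825) and of 2 Tef promoters (chr15:81802509-81802588 and chr15:81811239-81811318).
Per1: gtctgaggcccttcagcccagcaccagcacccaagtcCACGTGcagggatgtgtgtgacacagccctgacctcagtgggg
Tef, first start: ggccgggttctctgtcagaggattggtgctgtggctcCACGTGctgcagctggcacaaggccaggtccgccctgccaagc
Tef, second start: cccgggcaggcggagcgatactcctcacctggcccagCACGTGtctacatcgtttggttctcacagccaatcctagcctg
Tef, a transcription factor driven by the clock and likewise chosen after its values were seen, was 32.8, 22.2, 102 and 89.2 CPM in the members. A match of letters does not show that a factor was bound there.

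Few genes differed between hyperoxia and air at pnd7. Of 3178 genes with enough counts, 7 were higher (0.22%) and 55 lower (1.73%) in the O2D7 members, with a median log2 ratio of 0.06. None of the 19 alveolar fibroblast, 13 elastic fibre, 15 collagen and proteoglycan, 10 basement membrane, 15 growth factor and 8 p53 target genes with enough counts passed 2-fold in either direction. Pdgfra had 15 counts in O2D7 and 76 in AirD7, below the limit of 100 and so outside these counts, and its log2 ratio was -1.36 (-2.27 to -0.55), against -0.92 in all other barcodes. In the lipid storage and Pparg list, 2 of 10 genes were lower and 0 higher (median -0.27, and -0.50 without members with Ptprc, Cdh5 or Epcam). They were Lpl, at -3.28, and Cebpa, an adipogenic transcription factor that macrophages also use, at 39.2 against 83.8 CPM (-1.10, -1.82 to -0.43). Markers of other cells were among the lower genes. Ctss, a cathepsin of macrophages, had 1 count in the O2D7 members against 142 in AirD7 (-6.17), and Fcer1g and Tyrobp, signalling subunits of immune receptors, had no count, which puts their log2 ratios at most at -5.03 and -4.75. Scgb1a1, the club cell secretoglobin, was -5.0, and all 5 red blood cell genes with enough counts were lower (median -1.40). Without members with Ptprc, Cdh5 or Epcam, the median of the red blood cell genes was -0.57, Hbb-bs had -0.33 in place of -1.24, and none of the 4 hemoglobin genes passed 2-fold. Ctss then had 0 counts against 35, a ratio of at most -2.80. The share of members with a Ptprc count was 3.70% in O2D7 and 15.2% in AirD7, and its part in these ratios was not tested. Among members without Ptprc, Cdh5 or Epcam, 0.127% of genes were higher and 0.848% lower.

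The few other genes past 2-fold at pnd7 had modest levels. Tgfbi, a matrix protein induced by TGF-beta, was 18.8 CPM in O2D7 and 145 in AirD7, with a log2 ratio of -2.95 (-3.65 without members with Ptprc, Cdh5 or Epcam). It was also lower in all other barcodes (-1.04). The metallothionein Mt1 was 35.8 against 119 CPM (-1.74), and Aspn, a small leucine-rich proteoglycan, had a ratio of -1.02. Among the higher genes, Ube2n, a ubiquitin-conjugating enzyme, was 143 against 62.2 CPM (1.20, 0.73 to 1.68). Gpx8, a peroxidase of the endoplasmic reticulum, was 165 against 76.9 CPM (1.11, 0.68 to 1.54), and without members with Ptprc, Cdh5 or Epcam its ratio was 0.90. Socs3, which damps cytokine signalling, was 160 against 76.0 CPM (1.08, 0.64 to 1.51), and Rbbp4, a histone-binding protein, was 97.2 against 47.5 CPM (1.03, 0.47 to 1.59). Lcn2 and Chil1 also passed 2-fold, but 69.4% and 63.6% of their counts came from 1 member. Likewise Saa3, chosen after its values were seen, had 91 counts in O2D7, of which 90 were in 1 member. In the cell cycle list 3 of 11 genes (Birc5, Ube2c and Cenpf) were lower and 0 higher, beside 1.73% of all genes lower. The list median was -0.36 in members, -0.03 without members with Ptprc, Cdh5 or Epcam and 0.38 in all other barcodes. The myofibroblast list had 2 of 6 genes lower and 0 higher (median -0.13).

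Few genes differed between the members of the hyperoxia and air libraries at pnd60 as well. Of 4970 genes with enough counts, 34 were higher (0.684%) and 20 lower (0.402%) in O2D60, with a median log2 ratio of 0.02. The 20 lower genes included 4 hemoglobin genes, at -5.80 to -6.44, and 1 AirD60 member held 93.3% of the Hbb-bs counts. Of the genes that differed with age, Pdgfra had a log2 ratio of -0.19 between hyperoxia and air, Gpx3 -0.01, Aldh1a1 -0.06, Serpina3n -0.39 (-0.66 to -0.12) and Lrat 0.51 (0.31 to 0.71), so none of these 5 passed 2-fold. None of the 21 alveolar fibroblast genes passed 2-fold (median -0.04). The same held for the 15 elastic fibre, 14 collagen and proteoglycan, 11 basement membrane, 24 growth factor, 10 p53 target, 12 secretory phenotype, 17 immediate early, 7 complement, 11 interferon and 10 cholesterol genes with enough counts. The hyperoxia comparisons share their libraries with the age comparisons, so the 4 sets of ratios are not independent.

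Macrophage genes were among the higher genes at pnd60. Of 8 macrophage genes with enough counts 6 were higher and 0 lower in O2D60 (median 1.46), beside 0.684% of all genes higher. The median was 0.89 without members with Ptprc, Cdh5 or Epcam and 0.06 in all other barcodes. Abcg1, a sterol exporter of alveolar macrophages, had a ratio of 2.33, and 0.36 (-2.21 to 3.13) on 4 and 3 counts without those members. Lpl, lipoprotein lipase, had 1.77, and 0.02 (-0.69 to 0.73) without them. C1qa had 1.72, and without them 4 counts in O2D60 and 0 in AirD60. The share of members with a Ptprc count was 18.1% in O2D60 and 15.7% in AirD60. The share of higher genes among those past 2-fold was 63.0% over all members, 32.1% without members with Ptprc, Cdh5 or Epcam and 37.2% in members with at least 4 genes of the rule. Ftl1, the ferritin light chain, was 609 against 217 CPM (1.49), 1.24 without those members and 1.16 in all other barcodes. It was thus also higher outside this class, and its counts are uncertain because the genome holds near-identical copies of it.

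Several genes were lower in the O2D60 members and remained past 2-fold in members with at least 4 genes of the rule. Nr4a3, an orphan nuclear receptor induced by stimulation, was 12.8 CPM in O2D60 and 86.4 in AirD60, with a log2 ratio of -2.75 (-3.58 to -2.0). In members with at least 4 genes it was -2.89, in adventitial fibroblasts -1.98 and in all other barcodes -0.90. Tsc22d3, the glucocorticoid-induced leucine zipper, was 139 against 373 CPM (-1.42, -1.68 to -1.17), -1.67 in members with at least 4 genes, -2.11 in adventitial fibroblasts and -0.60 in all other barcodes. The clock gene Per1 was 116 against 241 CPM (-1.06), and Cebpd, a factor induced by glucocorticoids, was 217 against 446 CPM (-1.04). The mitochondrial carrier Slc25a25 was 22.7 against 67.5 CPM (-1.57). In the glucocorticoid list added after the values were seen, 4 of 11 genes were lower and 0 higher, beside 0.402% of all genes lower. The list median was -0.70, -0.78 without members with Ptprc, Cdh5 or Epcam and -0.27 in all other barcodes. In the clock list 1 of 10 was lower (median -0.33), and Nr1d1 itself stood at -0.11. Hhip and Hmox1 were past 2-fold with 60.7% and 50% of their counts in a library held by a single member each. In members with at least 4 genes they had ratios of 0.37 and 0.04.

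**Figure D5:**
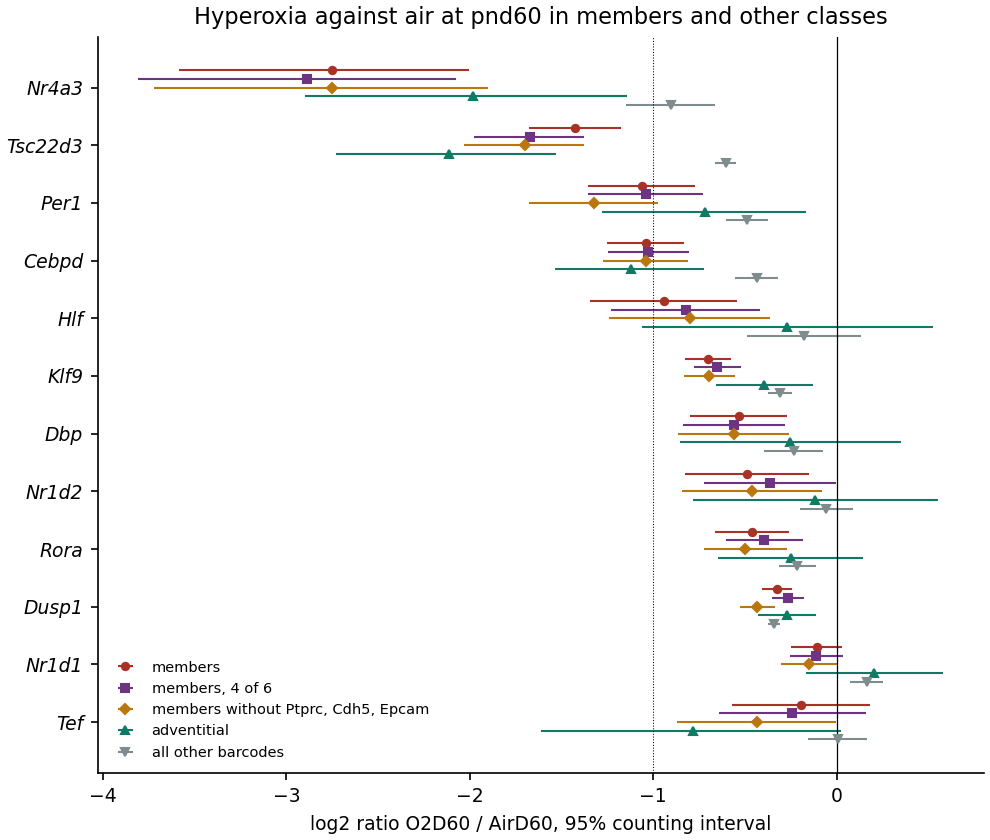
Log2 ratio of O2D60 over AirD60 (x axis, counting 95% intervals) for 12 genes (y axis) in all members, members with at least 4 of the 6 genes, members without Ptprc, Cdh5 or Epcam, adventitial fibroblasts and all other barcodes. Nr4a3, Tsc22d3, Per1 and Cebpd lie left of 0 in all 5 classes, with Nr4a3 at -2.75 in members and -0.90 in all other barcodes, while Nr1d1 lies near 0 (-0.11 in members). The genes plotted, Nr4a3 apart, come from the clock and glucocorticoid lists, which were added after the values were seen.

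The members differed from the other mesenchymal classes, which were set by rules on the same kind of genes and are compared as a description. The adventitial class (at least 2 of Pi16, Dpt and Col14a1 detected, with the same limits on Acta2 and Pecam1) held 29, 8, 46 and 62 barcodes. Wnt2 was higher in members in all 4 libraries (log2 4.17, 2.69, 2.49 and 2.85), and so was Ces1d, a carboxylesterase that hydrolyses lipid esters (3.97, 2.15, 2.37 and 2.71). Ces1d, Col3a1 and Cdh11 were chosen after their values were seen. Col1a1 was lower in members, by log2 ratios of -3.20, -2.88, -1.25 and -1.63, and so was Col3a1, at -3.13, -3.09, -1.31 and -1.84. Of the collagen and proteoglycan list, 11 of 16, 8 of 16, 5 of 13 and 6 of 14 genes were lower in members (medians -1.38, -1.12, -0.73 and -0.94), beside 6.04%, 8.04%, 3.71% and 3.1% of all genes. Of the alveolar fibroblast list outside the rule, 14 of 19, 11 of 13, 7 of 20 and 7 of 20 were higher, beside 10.6%, 16.4%, 7.81% and 6.53% of all genes. In the same list 2, 1, 2 and 2 genes were lower, beside 6.04%, 8.04%, 3.71% and 3.1% of all genes. Type II cell markers were also higher in members than in the adventitial class, for 9 of 9, 8 of 8, 9 of 9 and 8 of 9 genes (medians 2.54, 4.44, 6.75 and 2.45), and the part of this RNA in the comparison was not tested. Pdgfra stood on opposite sides by age, with -1.91 and -2.76 at pnd7 and 1.0 and 0.97 at pnd60.

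Against the Acta2-high class (267, 138, 15 and 17 barcodes), the alveolar fibroblast list was higher in members for 17 of 21, 16 of 20, 13 of 14 and 10 of 10 genes, beside 6.13%, 4.6%, 25.2% and 26.7% of all genes. In that list 2, 2, 0 and 0 genes were lower, beside 575 of 6772, 415 of 4890, 35 of 667 and 21 of 389 of all genes. Type II cell markers were higher for 9 of 9, 7 of 8 and 8 of 8 genes in AirD7, O2D7 and AirD60. C7 differed by log2 ratios of 3.99, 3.47, 4.62 and 4.53 and Cdh11 by 1.52, 1.02, 3.63 and 4.25. Here too Pdgfra was lower in members at pnd7 (-2.49 and -3.31) and higher at pnd60 (3.75 and 5.11).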

How the data were processed

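The deposited matrices hold unnormalised molecule counts (UMI) for each feature and barcode, and the authors had already called the barcodes as cells. Per the file headers the matrices were written by Cell Ranger 3.1.0, and the submitters' processing notes name mm10 and Seurat 3.2.1. The 42454 features included 2 mitochondrial ones, both ribosomal RNAs, so the limit of 5% rests on these.

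The members were taken by the rule above and their counts were summed per library with Python 3.11.15, numpy 2.4.6, scipy 1.17.1 and pandas 2.3.3. Ratios are log2 ratios of CPM with exact conditional binomial intervals at 95%. A class at 0 counts was set to 3 counts, and the ratio is then a bound. A list's median is given where at least 5 genes had enough counts. Ratios and intervals were first tested on simulated data. Scrublet, run in scanpy 1.11.5, called 0 of 2308, 4 of 1246, 141 of 4397 and 157 of 4756 barcodes as doublets, so at pnd7 it marked almost none. No doublets were removed in the main values.

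The members, the 33 gene lists and the alternatives were chosen with earlier results of these data known. A further 2 lists (clock and glucocorticoid) and 1 alternative were added after these values were seen. The text names, for each comparison, the genes among the 8 highest and the 8 lowest ratios outside the rule and, from each list, up to 3 genes past 2-fold with most counts in each direction and the gene with most counts. Senescence marks of the study are given whatever their change, and other genes are said to be chosen later. Some genes that the rule names are not reported here. Features named as further copies of a gene were not added to it. Promoter sequences are from RefSeq tables of GRCm38.p6. Pericyte, neutrophil and mesothelial markers summed to 204, 367, 170 and 228 CPM, to 26.8, 5.11, 70.8 and 16.6 CPM, and to 146, 155, 23.9 and 66.5 CPM in the members.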

Additional observations from a re-analysis of the deposited data

Results flagged for a closer look

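Of 2940 genes with enough counts at both ages, 7 differed by more than 2-fold between hyperoxia and air in opposite directions. For these 7, the O2D7 members lay below the AirD7 members while the O2D60 members lay above the AirD60 members. A further 4, the hemoglobin genes Hbb-bs, Hbb-bt, Hba-a1 and Hba-a2, were lower by more than 2-fold after hyperoxia at both ages. The difference between the ages was not tested, since each condition was a single library.

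Most of the 7 are known from macrophages. The log2 ratio of hyperoxia over air was -6.17 at pnd7 and 1.26 at pnd60 for the cathepsin Ctss, and -6.55 and 1.56 for the chemokine Ccl6. For C1qa, with no count in O2D7, it was at most -4.51 at pnd7 and 1.72 at pnd60. Lipoprotein lipase, Lpl, had -3.28 and 1.77, and the tetraspanin Cd9 had -1.76 and 1.63. The macrophage list, which holds Ctss and C1qa itself, summed to 849, 293, 805 and 1845 CPM in the AirD7, O2D7, AirD60 and O2D60 members. Without members with Ptprc, Cdh5 or Epcam, the pnd60 ratio was 0.02 for Lpl, 0.26 for Cd9 and 0.68 for Ccl6, while for Ctss it was 1.43 (-0.13 to 3.25) on 14 and 5 counts, still past 2-fold. At pnd7 the ratios without those members remained low, at -2.45 for Lpl, -3.41 for Cd9, -5.43 for Ccl6 and at most -2.80 for Ctss. C1qa then had 0 and 1 counts at pnd7, too few for a ratio, and 4 and 0 at pnd60.

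Pdgfa, a ligand of the receptor Pdgfra, had -1.11 at pnd7 and 1.18 at pnd60, and -0.71 and 0.98 without those members. Sept9, a septin of the cytoskeleton, had -1.16 and 1.16, and -0.87 and 1.01 without them. The part of other cells' RNA in these ratios was not tested.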

How the results depend on the processing

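No paired analysis was possible because there was a single library for every condition, and no replicate could be left out for the same reason. The share of members was 4.55% in AirD7 and 4.01% in O2D7 with at least 4 of the 6 genes. In AirD7 it was 6.37% without members with Ptprc, Cdh5 or Epcam, and 6.28% when those without a collagen count were left out too. In O2D7 it was 11.1% after thinning. For hyperoxia against air at pnd7, the percent of genes higher and lower was 2.61 and 4.41 by mean CPM per cell, 1.70 and 3.98 after thinning to 1500 counts, 0.648 and 2.79 with at least 50 counts, and 0.116 and 0.695 with at least 300. It was 0.130 and 0.739 with at least 4 genes, 0.127 and 0.848 without other lineages, and 0.128 and 0.854 without those lacking collagen too. At pnd60 the percent higher was 0.423 by mean CPM per cell, 0.332 after thinning, 1.28 with at least 50 counts, 0.407 with at least 4 genes, 0.418 without Scrublet doublets, 0.273 without other lineages and 0.283 without those lacking collagen too. The percent lower was 0.687 with at least 4 genes. With age in air, thinning gave 25% higher and 16.4% lower, and at least 300 counts gave 16.3% lower. With age after hyperoxia, the percent lower was 19.2 after thinning and 18.7 with at least 300 counts. Under the other alternatives the shares and the percents of genes past 2-fold were within 1.5 times those reported.

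Several ratios of single genes took the opposite sign, all of them genes of other lineages or held by few members. By mean CPM per cell at pnd7, Chil1 was -0.0097 and Hc was -0.81, and with at least 4 genes Hbb-bs was 0.032. Without other lineages Lyz1 was 4.79 at pnd60, and with age after hyperoxia Chil1 was 3.28, Lyz1 6.39 and Sftpc 3.88. Without those lacking collagen too, Sftpc was 2.29 with age after hyperoxia, and in air Sftpa1 was -2.68 and Slc34a2 -2.69. The median of the myofibroblast list with age after hyperoxia, reported as -1.51, was 0.26 with at least 50 counts and 0.14 with the wider filter on barcodes. The causes were not tested. Of the named genes past 2-fold with age and with enough counts, 90 of 94 in air and 86 of 89 after hyperoxia remained past it with at least 4 genes of the rule, and 85 of 89 and 78 of 84 without other lineages. For hyperoxia against air these numbers were 7 of 10 and 3 of 9 at pnd7, and 15 of 16 and 9 of 11 at pnd60. The O2D7 class had the fewest members (81) and the smallest summed counts (586544), although its median depth per member was the highest (5414 counts).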
